A study of Homo sapiens with 6 samples.

Results

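The genes examined were 10 members of the prostaglandin pathway, chosen by name from a count table of 60623 genes. They cover arachidonate release (*PLA2G4A*), the cyclooxygenases (*PTGS1* and *PTGS2*), the prostaglandin E2 (PGE2) synthases (*PTGES*, *PTGES2*, and *PTGES3*), prostacyclin synthase (*PTGIS*), the PGE2 receptors EP2 and EP4 (*PTGER2* and *PTGER4*), and prostaglandin breakdown (*HPGD*). All 10 had enough reads to enter the test of 13966 genes. The cells were TC28a2, an immortalized human chondrocyte line, so that every sample came from 1 line. Mocetinostat, an inhibitor of class I histone deacetylases, was given at 2 μM for 24 hours, and the control cultures received the solvent, DMSO. RNA-Seq was performed on 3 samples of each kind, described in the study as independent experiments. The methods of the study name no cytokine for these cultures.

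Prostaglandins are made when a phospholipase A2 frees arachidonic acid from membranes and a cyclooxygenase turns it into PGH2, which terminal synthases convert to PGE2, prostacyclin, and other prostanoids. *PTGS2* encodes COX2, the inducible cyclooxygenase that nonsteroidal antiinflammatory drugs target, and *PTGES* encodes the inducible microsomal PGE2 synthase. In joints, chondrocytes and synovial cells release PGE2 in response to inflammatory cytokines, and PGE2 acts on its receptors to raise cAMP and to sensitize pain fibers. The enzyme encoded by *HPGD* ends the signal by oxidizing PGE2.

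The regions just upstream of the RefSeq starts are shown for 4 members, namely the gene with the largest fold change of the 10, its constitutive counterpart, and the PGE2 synthases with the largest and the smallest change. Each run is 250 bases, from GRCh38.p14, on the strand of the gene. The windows are chr1:186680424-186680673 (minus strand) for *PTGS2*, chr9:122370283-122370532 (plus strand) for *PTGS1*, chr9:129753043-129753292 (minus strand) for *PTGES*, and chr12:56688285-56688534 (minus strand) for *PTGES3*. Capitals mark matches, on either strand, to a TATA box (TATAAA), a GC box (GGGCGG), the core of a cAMP response element (CGTCA), a C/EBP motif (TTNNGNAA), or an E-box (CANNTG).
PTGS2: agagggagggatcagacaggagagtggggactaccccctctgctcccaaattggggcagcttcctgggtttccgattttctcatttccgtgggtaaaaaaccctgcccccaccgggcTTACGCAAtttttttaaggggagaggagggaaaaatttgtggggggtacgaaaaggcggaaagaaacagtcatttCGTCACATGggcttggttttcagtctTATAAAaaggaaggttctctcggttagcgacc
PTGS1: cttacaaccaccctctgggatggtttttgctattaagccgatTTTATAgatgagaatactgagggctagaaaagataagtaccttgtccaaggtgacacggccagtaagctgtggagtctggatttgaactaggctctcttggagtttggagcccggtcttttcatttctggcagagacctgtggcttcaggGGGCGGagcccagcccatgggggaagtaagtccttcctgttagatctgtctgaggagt
PTGES: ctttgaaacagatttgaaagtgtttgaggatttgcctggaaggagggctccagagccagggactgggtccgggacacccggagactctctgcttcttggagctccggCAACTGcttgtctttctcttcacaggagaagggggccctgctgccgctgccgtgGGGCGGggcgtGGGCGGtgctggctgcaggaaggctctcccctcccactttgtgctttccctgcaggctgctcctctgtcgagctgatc
PTGES3: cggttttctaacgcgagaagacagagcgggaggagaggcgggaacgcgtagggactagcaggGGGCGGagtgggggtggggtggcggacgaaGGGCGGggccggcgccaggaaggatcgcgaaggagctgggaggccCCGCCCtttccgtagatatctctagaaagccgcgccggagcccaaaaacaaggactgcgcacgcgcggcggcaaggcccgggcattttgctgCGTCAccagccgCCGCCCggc
The *PTGS2* window held TATAAA 32 bases before the start, CGTCA 58 bases before it overlapping an E-box at 55, and TTACGCAA 133 bases before it. The *PTGS1* window belongs to a start 491 bases from the canonical GENCODE one, and its only TATAAA match lay 208 bases upstream on the opposite strand. *PTGES* carried GC boxes at 78 and 89 bases and an E-box at 143, whereas *PTGES3* carried 4 GC boxes and a CGTCA at 21.

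A window was found for 9 of the 10 members, *PTGIS* having none in the table used. TATAAA occurred in 2 of the 9, *PTGS1* and *PTGS2*, and in 10.8% of 34941 windows of all genes. The C/EBP motif matched only in *PTGS2* among the 9, beside 33.2% of all windows, and CGTCA matched in *PTGS2*, *PTGES3*, and *PTGER2*, beside 21.2%. GC boxes were found in 7 of the 9 (42.5% of all windows), E-boxes in 5 (61.8%), CCAAT boxes in 3 (32.0%), a loose NF-kB-like pattern in 7 (54.4%), and the AP-1 pattern TGANTCA in none (6.59%). The NF-kB-like pattern was GGGNNNNNCC, and in *PTGS2* its matches began 223 to 225 bases before the start, where runs of G and C overlap one another. The base composition differed among members, from 38.8% GC upstream of *PLA2G4A* to 74.0% upstream of *PTGER2*, with *PTGS2* at 50.4% and a median of 58.0% over all windows. Such matches describe letters in a window and not bound sites.

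**Figure D1:**
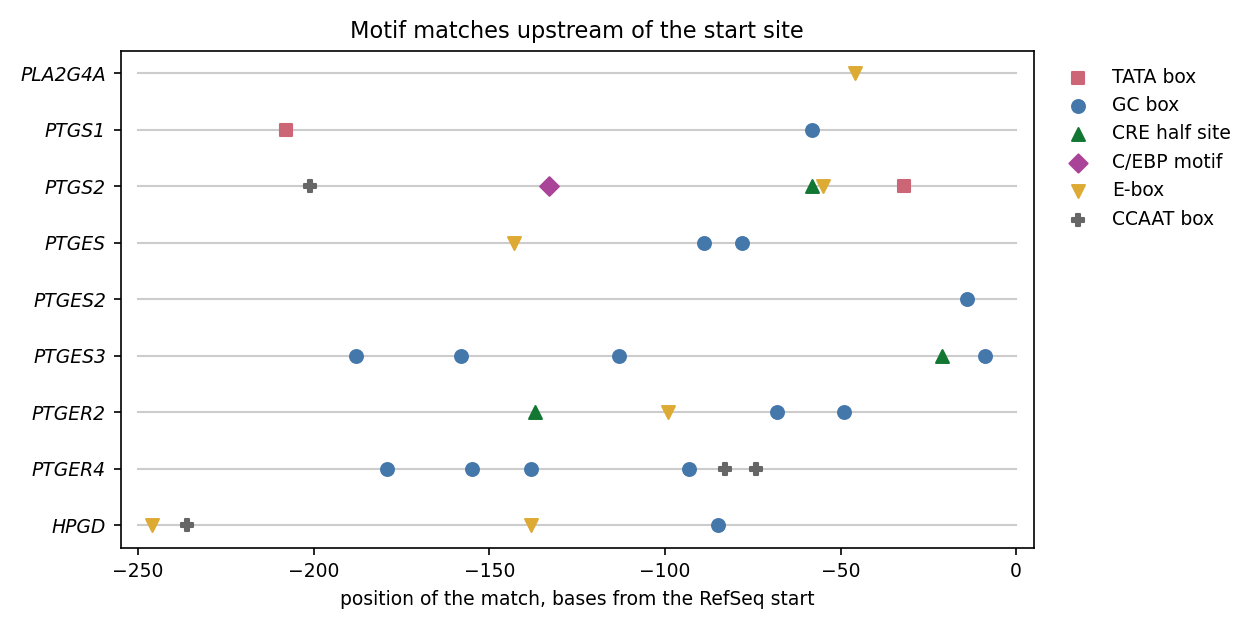
Motif matches in the 250 bases upstream of the RefSeq start of 9 prostaglandin pathway genes. The x axis gives bases from the start (0 at the right), each row is a gene, and each symbol marks the first base of a match on either strand; *PTGS2* is the only row with a C/EBP motif and has a TATA box 32 bases upstream.

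The samples held 4873426 to 11031132 counts under DMSO and 1619344 to 5089542 under mocetinostat. Expression is given as CPM, counts scaled to library size after normalization by TMM (trimmed mean of M values). Of the 13966 genes tested, 20.2% were upregulated and 8.18% were downregulated with mocetinostat in edgeR's quasi-likelihood test, with 0.05 as the limit of the Benjamini-Hochberg adjusted p and 1 as that of the log2 fold change in size. All 12 chondrocyte markers examined were detected, 9 of them in every sample, and their summed level was 117 to 142 CPM with DMSO and 265 to 307 CPM with mocetinostat. Most of that sum was *SOX9*, while *COL2A1* averaged 2.20 CPM with DMSO and 28.7 CPM with mocetinostat. The 6 leukocyte markers summed to 2.44 to 5.41 CPM with DMSO and 7.14 to 12.4 CPM with mocetinostat. The T cell gene *CD3E* had no read in any sample, *CD68* had none with mocetinostat, and *CD14* made up most of the treated sum. The 3 endothelial markers summed to 4.98 to 7.08 CPM and 16.1 to 22.8 CPM, respectively. The part of these shifts in the changes described here was not tested. In a bulk sample, fewer cells expressing a gene and less RNA per cell cannot be told apart.

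With mocetinostat, 8 of the 10 prostaglandin genes were upregulated, beside 20.2% of all genes tested, and none was downregulated, beside 8.18%. The members were chosen with earlier results of these data known, so the comparison with all genes is descriptive and not a test of the set. The 8 were *PLA2G4A*, *PTGS1*, *PTGS2*, *PTGES*, *PTGIS*, *PTGER2*, *PTGER4*, and *HPGD*, and in each of them every treated sample lay above every DMSO sample, which held for 33.7% of all genes tested. The share of all genes that were both upregulated and apart in this way was 19.8%. The remaining genes, *PTGES2* and *PTGES3*, lay lower in every treated sample, as did 32.8% of all genes, with changes short of the fold threshold. The median log2 fold change was 3.01 over the 10 members and -0.0021 over all genes tested.

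**Figure D2:**
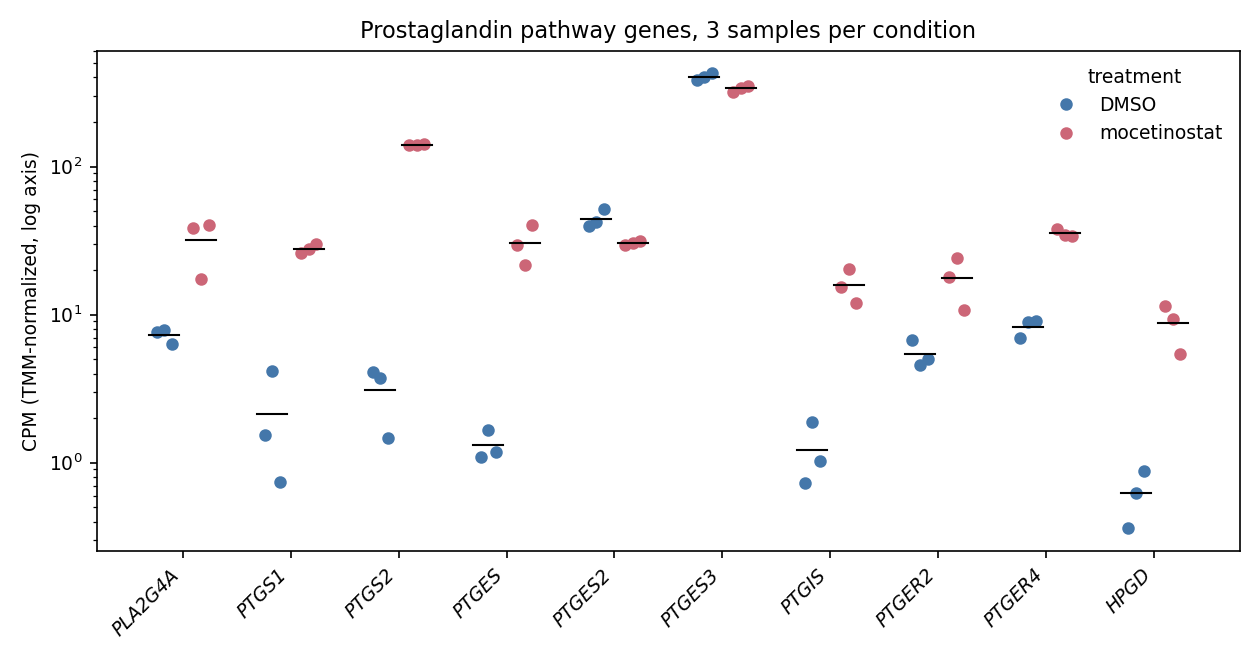
TMM-normalized CPM (log axis) of the 10 prostaglandin pathway genes in each sample, with 3 DMSO samples in blue, 3 mocetinostat samples in red, and a bar at each mean. *PTGS2* moves from 1.47 to 4.07 CPM with DMSO to 138.8 to 141 CPM with mocetinostat, while *PTGES2* and *PTGES3* lie slightly lower in the treated samples.

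Arachidonate release was represented by *PLA2G4A* (ENSG00000116711, chr1:186828949-186988981, plus strand), which encodes the cytosolic phospholipase A2 that cleaves arachidonic acid from membrane phospholipids. Its counts were 84, 38, and 43 under DMSO and 194, 28, and 97 under mocetinostat. In CPM, these were 7.60, 7.91, and 6.34 with DMSO and 38.5, 17.4, and 40.2 with mocetinostat. The groups did not overlap, and the shallowest treated sample, replicate 2, had less than the other two. The log2 fold change was 2.20 (SE 0.22, 95% interval 1.76 to 2.64; adjusted p = 2.87e-14, edgeR quasi-likelihood test, Benjamini-Hochberg), a 4.59-fold rise.

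Both cyclooxygenases rose. *PTGS2* (ENSG00000073756, chr1:186671791-186680922, minus strand) had 45, 18, and 10 counts under DMSO and 704, 224, and 341 under mocetinostat. In CPM, that was 4.07, 3.75, and 1.47 against 139.6, 138.8, and 141. The treated samples were nearly equal, more so than counting error at 224 to 704 reads would give on average. Their SD therefore understates the uncertainty. DMSO replicate 3 lay below the other controls. The mean was 3.10 ± 1.42 CPM with DMSO and 139.9 ± 1.29 CPM with mocetinostat (SD, n = 3). The fold change was 43.5 (95% interval 34.2 to 55.4), or 5.44 on the log2 scale (SE 0.17; adjusted p = 2.21e-40, edgeR quasi-likelihood test, Benjamini-Hochberg), and 1.45% of the genes tested had a higher one. Leaving out each sample in turn gave log2 fold changes of 5.10 to 5.81. By qPCR, the study reported lower *PTGS2* with mocetinostat in primary osteoarthritis chondrocytes stimulated with IL-1β. Cells, stimulus, and dose, which was higher there, differ from those here, and the source of the difference in direction was not tested.

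*PTGS1* (ENSG00000095303, chr9:122370530-122395703, plus strand) encodes COX1, the form found in most tissues at rest. It had 17, 20, and 5 counts under DMSO and 132, 45, and 72 under mocetinostat, or 1.54, 4.16, and 0.737 CPM against 26.2, 27.9, and 29.8 CPM. The control samples were scattered, with replicate 2 highest, and none reached the treated range. The rise was 3.85 on the log2 scale (SE 0.30, 95% interval 3.25 to 4.45; adjusted p = 1.03e-18, edgeR quasi-likelihood test, Benjamini-Hochberg). The constitutive cyclooxygenase thus rose 14.4-fold. Without DMSO replicate 2, the rise was 4.45 on the log2 scale, over 1.5 times larger as a fold. Within each sample, counts of *PTGS2* were 0.902 to 2.6 times those of *PTGS1* with DMSO and 4.71 to 5.32 times with mocetinostat. This ratio does not depend on how samples are scaled, and it was 3.02 times larger with mocetinostat, although the exact two-sided permutation test over 3 and 3 samples could not go below p = 0.1, the value it gave (adjusted p = 0.125 over 5 such ratios).

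The 3 PGE2 synthases moved in different directions. *PTGES* (ENSG00000148344, chr9:129738331-129753042, minus strand), the microsomal enzyme that couples to COX2, had 12, 8, and 8 counts under DMSO and 150, 35, and 97 under mocetinostat. In CPM, these were 1.09, 1.67, and 1.18 against 29.7, 21.7, and 40.2, with the treated samples more spread than the controls but far above them. The log2 fold change was 4.61 (SE 0.30, 95% interval 4.01 to 5.20; adjusted p = 7.47e-23, edgeR quasi-likelihood test, Benjamini-Hochberg), a 24.4-fold rise. *PTGES2* (ENSG00000148334, chr9:128120693-128128462, minus strand) encodes a membrane-associated PGE2 synthase found in many tissues. It had 39.7, 42.1, and 51.9 CPM with DMSO and 29.3, 30.4, and 31.5 CPM with mocetinostat, a log2 fold change of -0.55 (SE 0.15; adjusted p = 0.00097, edgeR quasi-likelihood test, Benjamini-Hochberg). *PTGES3* (ENSG00000110958, chr12:56663341-56688408, minus strand) encodes the cytosolic synthase, better known as the HSP90 cochaperone p23. It had 383, 406, and 425 CPM with DMSO and 321, 341, and 349.8 CPM with mocetinostat, a log2 fold change of -0.27 (SE 0.08; adjusted p = 0.00195 by the same test).

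The 2 small decreases depended on the scaling. When samples were scaled to *GAPDH*, which moved the median log2 fold change of all genes to 0.53, *PTGES2* came to -0.02 (adjusted p = 0.917) and *PTGES3* turned to 0.26 (adjusted p = 0.0102, edgeR quasi-likelihood test, Benjamini-Hochberg), both still below that median. The difference between the synthases did not rest on scaling. The ratio of *PTGES* to *PTGES2* counts was 0.0241 to 0.0420 with DMSO and 0.717 to 1.27 with mocetinostat, so that reads of the 2 synthases became about equal. The ratio of *PTGES* to *PTGES3* was 0.00294 to 0.00436 with DMSO and 0.0645 to 0.115 with mocetinostat. These ratios were 31.8 and 26.3 times larger with mocetinostat, with no overlap between groups (exact two-sided permutation p = 0.1 for each, the smallest possible, adjusted p = 0.125). Processed pseudogenes share sequence with *PTGES3*, and the 5 in the table held 0.364% to 2.13% of its counts.

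*PTGIS* (ENSG00000124212, chr20:49503874-49568137, minus strand) encodes prostacyclin synthase, which turns PGH2 into the vasodilator prostacyclin. It had 8, 9, and 7 counts under DMSO and 78, 33, and 29 under mocetinostat, or 0.724, 1.87, and 1.03 CPM against 15.5, 20.5, and 12.02 CPM. All treated samples lay above all controls, and the controls rested on fewer than 10 reads each. On the log2 scale the rise was 3.82 (SE 0.38, 95% interval 3.05 to 4.58; adjusted p = 4.31e-14, edgeR quasi-likelihood test, Benjamini-Hochberg). With all samples thinned to 1619344 counts it was 2.54, the lowest value among the alternatives tried.

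Both EP receptors, which couple to Gs and raise cAMP, rose. *PTGER4* (ENSG00000171522, chr5:40679915-40693735, plus strand) had 77, 43, and 61 counts under DMSO and 191, 56, and 82 under mocetinostat, or 6.97, 8.95, and 8.99 CPM against 37.9, 34.7, and 34.0 CPM. Replicates were close in both groups. The log2 fold change was 2.13 (SE 0.20; adjusted p = 2.07e-15, edgeR quasi-likelihood test, Benjamini-Hochberg), a 4.38-fold rise. *PTGER2* (ENSG00000125384, chr14:52314305-52328598, plus strand) had 74, 22, and 34 counts under DMSO and 90, 39, and 26 under mocetinostat, or 6.69, 4.58, and 5.01 CPM against 17.8, 24.2, and 10.8 CPM. The treated samples spread widely, and the lowest was still above the highest control. It rose by 1.62 on the log2 scale (SE 0.27, 95% interval 1.08 to 2.16; adjusted p = 3.40e-07 by the same test). The ratio of *PTGER4* to *PTGER2* counts was 1.04 to 1.93 with DMSO and 1.43 to 3.11 with mocetinostat, and these ranges overlapped (exact two-sided permutation p = 0.4, adjusted p = 0.4).

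*HPGD* (ENSG00000164120, chr4:174490175-174523154, minus strand) encodes 15-hydroxyprostaglandin dehydrogenase, the main enzyme of PGE2 inactivation. It had 4, 3, and 6 counts under DMSO and 58, 15, and 13 under mocetinostat, or 0.362, 0.625, and 0.884 CPM against 11.5, 9.30, and 5.39 CPM. The breakdown gene therefore rose along with *PTGS2* and *PTGES*, from a control level close to the limit of detection. The log2 fold change was 3.89 (SE 0.50, 95% interval 2.89 to 4.88; adjusted p = 2.50e-10, edgeR quasi-likelihood test, Benjamini-Hochberg), the widest interval of the 10. Counts of *PTGS2* were 1.62 to 10.1 times those of *HPGD* with DMSO and 12.04 to 25.3 times with mocetinostat. As a geometric mean the ratio was 3.71 times larger with mocetinostat, or 1.89 on the log2 scale (exact two-sided permutation p = 0.1, the smallest possible, adjusted p = 0.125). This value moved with single control samples, to 1.17 on the log2 scale without DMSO replicate 3 and to 2.49 without DMSO replicate 1. A gene on the opposite strand covered 5.68% of the exons of *HPGD*, and whether counting used strand is not given in the sources used here.

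**Figure D3:**
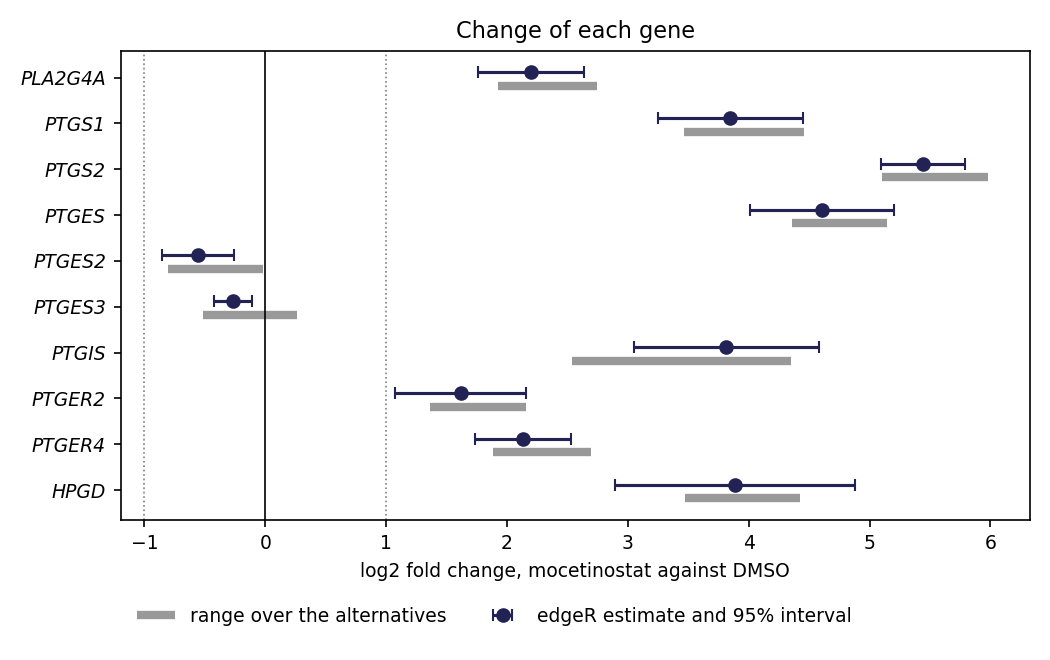
Log2 fold change of each prostaglandin pathway gene, mocetinostat against DMSO. Points and bars show estimates and 95% intervals computed from edgeR's fit, and gray bars the range over all alternative settings. The 8 upregulated genes lie to the right of 1 (dotted line), and *PTGES3* is the only gene whose gray bar crosses 0.

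**Figure D4:**
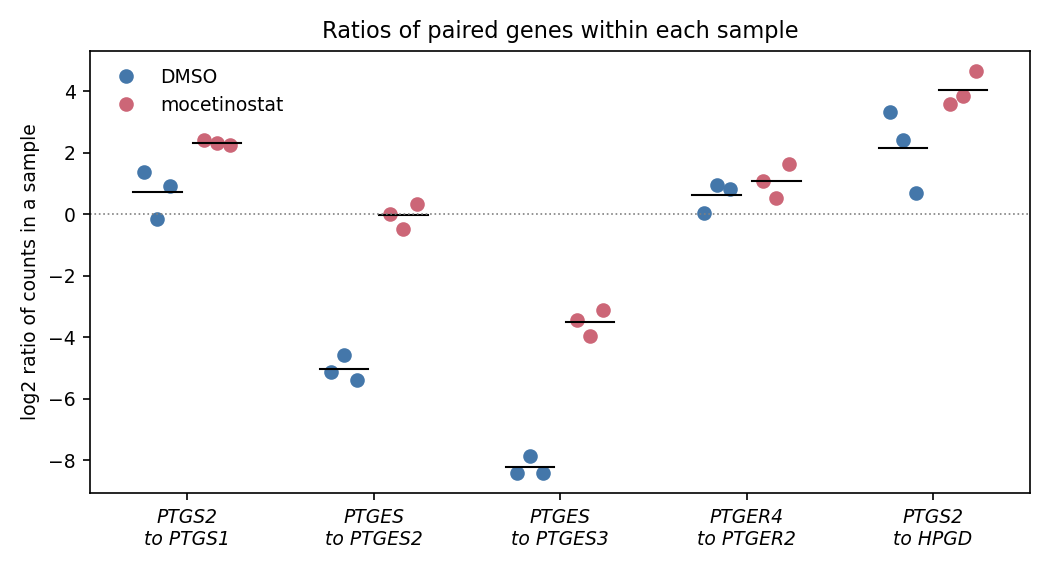
Log2 ratio of the counts of paired genes within each sample (y axis), with DMSO in blue, mocetinostat in red, and a bar at the mean of 3 samples. The largest shifts are those of *PTGES* against *PTGES2* and *PTGES3*, and only *PTGER4* to *PTGER2* overlaps between conditions.

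The order of the genes by level was compared per kilobase of annotated exon. With DMSO, *PTGES3* was highest at 119 ± 6.22 CPM per kb, followed by *PTGES2* at 7.32 ± 1.06 CPM per kb. *PLA2G4A*, *PTGER4*, and *PTGER2* came next at 2.53, 2.34, and 2.20 CPM per kb and overlapped. *PTGES*, *PTGS2*, *PTGS1*, *PTGIS*, and *HPGD* followed between 0.693 and 0.113 CPM per kb, each overlapping its neighbor in the order. The inducible enzymes *PTGES* and *PTGS2* thus lay in this lower group in control cells, with *PTGS1*, *PTGIS*, and *HPGD* below them by mean. With mocetinostat, *PTGES3* remained highest at 99.2 ± 4.37 CPM per kb, and *PTGS2* was next at 25.5 ± 0.234 CPM per kb, apart from its neighbors in the order. *PTGES* at 16.2 ± 4.91, *PLA2G4A* at 11.1 ± 4.42, *PTGER4* at 10.02 ± 0.583, *PTGER2* at 7.14 ± 2.72, *PTGES2* at 4.997 ± 0.177, and *PTGS1* at 4.83 ± 0.317 CPM per kb (all SD, n = 3) formed a run in which each gene overlapped the next. *PTGIS* and *HPGD* lay apart from these and were lowest, at 2.87 and 1.58 CPM per kb. The place of *PTGES2* depended on the length used. Its annotated exons add up to 6084 bases and its canonical transcript to 1598 bases, and with the latter it ranked 3 with mocetinostat at 19.0 CPM per kb, below *PTGS2* at 31.0.

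*PTGS2* and *PLA2G4A* are neighbors on chromosome 1, transcribed away from each other with starts 148027 bases apart. Within 500 kb of the *PTGS2* start, 13 other genes were in the count table, of which 3 had enough reads to be tested. Of these only *PLA2G4A* was upregulated. *TPR*, which encodes a nuclear pore protein, had a log2 fold change of 0.06 (adjusted p = 0.512), and *ODR4* had -0.36 (adjusted p = 0.128, edgeR quasi-likelihood test, Benjamini-Hochberg). *PACERR*, a long noncoding RNA whose transcription starts 178 bases upstream of *PTGS2* on the opposite strand, inside the window printed above, had 0, 1, and 3 counts under DMSO and 5, 0, and 4 under mocetinostat and was not tested. Its exons cover 3.99% of those of *PTGS2*.

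The 5 genes whose profile lay nearest to that of *PTGS2* over the 6 samples, among 10974 compared, were *GPC4*, *ZCCHC12*, *CD24*, *MCF2L*, and *SPP1*. The distance, taken between centered log2 CPM values with a prior count of 2, ran from 0.43 for *GPC4* to 0.66 for *SPP1*. *CD24* was the only one of the 5 at a like control level, with 31, 19, and 10 counts under DMSO and 510, 154, and 285 under mocetinostat, although it has near-identical copies that could share its reads. The other 4 had at most 7 counts in any control sample, where the prior count shrinks changes most. Their fitted log2 fold changes were 5.91 to 6.29, beside 5.44 for *PTGS2*, so their closeness depends on it. *SPP1* encodes osteopontin, and *GPC4* encodes a cell surface heparan sulfate proteoglycan.

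Genes around the pathway were then examined in 10 lists holding 143 genes, of which 105 had enough reads to be tested. Of these, 36 were upregulated (34.3%, beside 20.2% of all genes) and 8 downregulated (7.62%, beside 8.18%), and their median was 0.49 on the log2 scale. The lists, too, were chosen with earlier results of these data known, so these shares only describe them. Without the fold threshold, 32.9% of all genes tested passed higher and 31.4% lower, and the counts of genes passing in each list are to be read beside these shares. Counts of upregulated and downregulated genes in each list are to be read beside 20.2% and 8.18%. Adjusted p-values in the following are from the same edgeR quasi-likelihood test with Benjamini-Hochberg adjustment over all genes.

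Among phospholipases A2 and arachidonate handling genes, 13 of 27 were tested, 12 passed the test higher (beside 32.9% of all genes) and none lower, and the median log2 fold change was 0.89. The 5 upregulated were *PLA2G6* (1.43), *ANXA1* (1.4), which encodes the phospholipase inhibitory protein annexin A1, *PLAAT3* (1.29), *PNPLA8* (1.23), and the desaturase gene *FADS2* (1.07). The lowest was *PNPLA2*, at -0.01. The secreted phospholipases *PLA2G2A* and *PLA2G5* had at most 4 counts in any sample and were not tested. Of the other prostanoid synthases, *AKR1C3*, which encodes a prostaglandin F synthase, had 2, 3, and 0 counts under DMSO and 50, 17, and 14 under mocetinostat. Its sequence is close to that of other *AKR1C* genes, so that reads may be shared. The treated level is at least 14.01-fold higher against a floor of 3 counts in the shallowest control sample. *CBR1* rose by 1.05 on the log2 scale, and the thromboxane synthase gene *TBXAS1* did not pass the test (0.37, adjusted p = 0.518). The lowest of this list was *PRXL2B*, at -0.08.

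Of the other prostanoid receptors, 3 of 8 were tested. *PTGFR*, the receptor of PGF2α, had 28, 11, and 23 counts under DMSO and 71, 11, and 25 under mocetinostat, a log2 fold change of 2.00 (adjusted p = 5.76e-07), and the lowest was *PTGFRN* at -0.19 (adjusted p = 0.101). The EP3 receptor gene *PTGER3* had 0, 1, and 0 counts under DMSO and 21, 2, and 11 under mocetinostat and fell below the filter. In transport and reduction, *SLCO2A1*, the prostaglandin transporter that carries PGE2 into cells for breakdown, rose by 2.00 (adjusted p = 1.08e-13), with *CBR4* at 1.16 and the prostaglandin reductase gene *PTGR1* at 1.14. *ZADH2*, which encodes another prostaglandin reductase, fell by 1.42 (adjusted p = 1.17e-08). The mRNAs of the importer gene *SLCO2A1* and of *HPGD* thus both rose, while those of *PTGR1* and *ZADH2* moved in opposite directions. Transport and enzyme activity are not measured by RNA-Seq.

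In the lipoxygenase branch, 6 of 15 genes were tested and 3 were upregulated (beside 20.2% of all genes). *ALOX5*, the first enzyme of leukotriene synthesis, had no read in the DMSO samples and 34, 4, and 10 counts with mocetinostat, at least 7.13-fold higher against the same floor. *ALOXE3* had a log2 fold change of 3.17 and *LTA4H* one of 1.11, while the lowest, *GGT5*, was at -0.00127. *LTC4S* had no read in any sample. In the endocannabinoid and epoxide branch, all 10 genes tested passed the test higher (beside 32.9% of all genes), 7 were upregulated, and the median log2 fold change was 1.46. *CYP2J2*, an arachidonate epoxygenase gene, went from no read to 28, 12, and 18 counts, at least 10.9-fold higher, and *ABHD12* had the lowest value at 0.28.

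**Figure D5:**
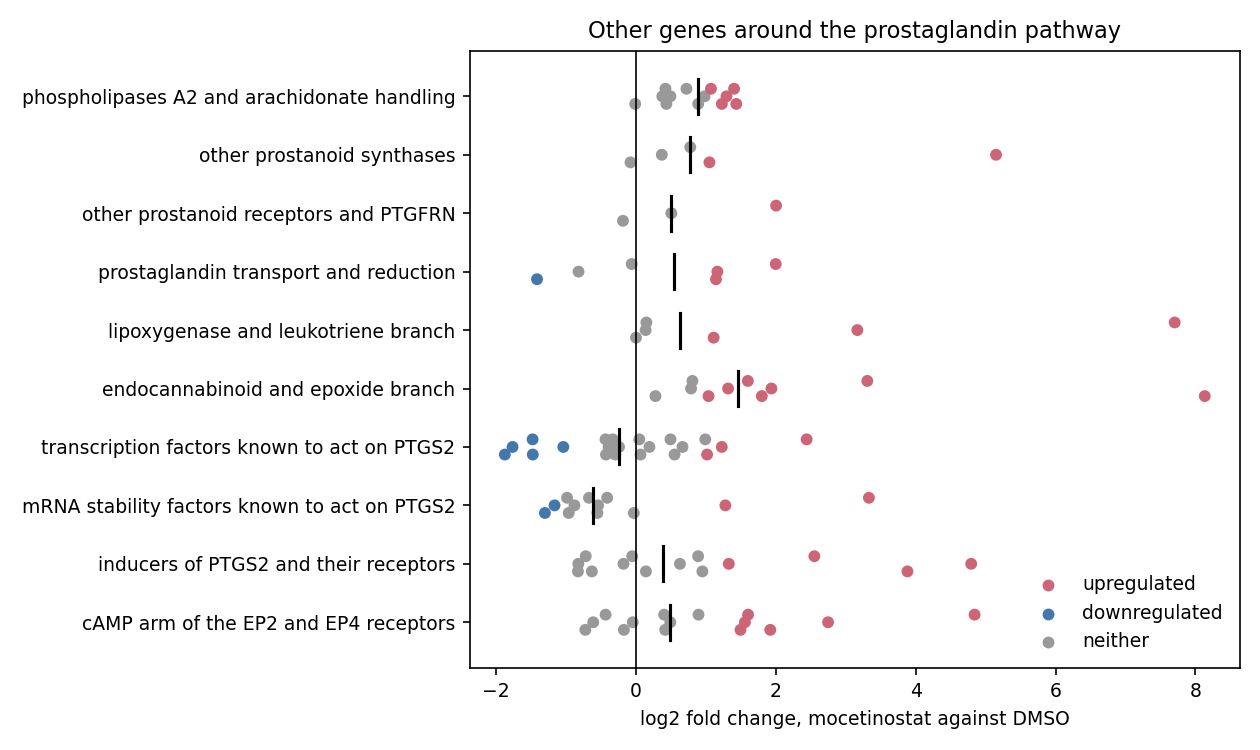
Log2 fold change, mocetinostat against DMSO, of the 105 tested genes in 10 lists around the pathway (rows). Each point is a gene (red upregulated, blue downregulated, gray neither) and each black bar a list's median, which is lowest for the mRNA stability factors at -0.61 and highest for the endocannabinoid and epoxide branch at 1.46; the points near 8 are *ALOX5* and *CYP2J2*, fitted against controls without a read.

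Among 21 transcription factors known to act on *PTGS2*, 3 were upregulated (beside 20.2% of all genes) and 5 downregulated (beside 8.18%). Their median was -0.24 on the log2 scale. *FOS* (2.44), *EGR1* (1.23), and *JUN* (1.02) were higher. *CEBPD* (-1.88), *NFKB1* (-1.77), *FOSL1* (-1.48), *NFATC2* (-1.48), and *USF1* (-1.04) were lower. *NFKB1*, which encodes the p105 precursor of the p50 subunit of NF-kB, had 755, 307, and 460 counts under DMSO and 112, 22, and 48 under mocetinostat, and all treated samples lay below all controls. Without the fold threshold, 7 passed the test higher and 10 lower, beside 32.9% and 31.4% of all genes, and the former included *CEBPB* (0.99) and *HIF1A* (0.66). With *GAPDH* scaling, 7 were upregulated and 2 downregulated, 11 passed higher and 5 lower, and the median was 0.29. That scaling moved all genes, with 4425 of 13966 upregulated, 284 downregulated, and a median of 0.53, so the list's median stayed below theirs.

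Of 12 mRNA stability factors, 9 passed the test lower (beside 31.4% of all genes) and 2 higher (beside 32.9%), with a median of -0.61. With *GAPDH* scaling, 5 passed lower and 3 higher, with a median of -0.08, beside a median of 0.53 over all genes. *RBM3* (-1.30) and *TIA1* (-1.17), which encodes a translational silencer of *PTGS2* mRNA, were downregulated. *CELF2*, whose product binds *PTGS2* mRNA, had 2, 3, and 2 counts under DMSO and 21, 4, and 7 under mocetinostat. The log2 fold change of *CELF2* was 3.33 (SE 0.67, interval of the fit 2.00 to 4.66), resting on few reads. *ZFP36*, which encodes the mRNA decay factor tristetraprolin, rose by 1.28. Such factors bind AU-rich elements, and the 3′ untranslated region of canonical *PTGS2* holds the pentamer ATTTA 22 times in 2562 bases. As many or more were present in 2.35% of 19550 coding genes. *PTGER4* held 9 copies, *PTGES* 1, and *PTGES2* none, against a median of 2 over all coding genes. Among the 8 upregulated members the number ranged from 1 to 22, and *PTGES3*, which was not upregulated, held 6. These numbers are not adjusted for length, and the median region had 1064 bases. Per kb, *PTGS2* (8.59) and *PLA2G4A* (8.46) were close.

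Among inducers of *PTGS2* and their receptors, 14 of 19 were tested. Of the 14, 4 were upregulated (beside 20.2% of all genes) and none was downregulated (beside 8.18%). *TNFRSF1B*, the TNF receptor 2 gene, had 10, 9, and 18 counts under DMSO and 235, 78, and 111 under mocetinostat (log2 fold change 4.79, adjusted p = 1.39e-27). The ligand *TGFA* rose by 3.88, *IL1B* by 2.55, and the receptor subunit *IL1RAP* by 1.33. The mean level of *IL1B* was 1.88 CPM with DMSO and 11.4 CPM with mocetinostat, and *TNF* had 1 count in all. Of this list, 4 of 14 genes passed the test lower, a share close to the 31.4% of all genes. The lowest was *IRAK1*, a kinase of the interleukin 1 receptor, at -0.83 (adjusted p = 5.03e-13, edgeR quasi-likelihood test). With *GAPDH* scaling, under which the median of all genes was 0.53, 2 passed lower. In the cAMP arm downstream of EP2 and EP4, 6 of 15 genes were called up (beside 20.2% of all genes) and none down (beside 8.18%). The immediate early gene *NR4A2*, a known PGE2 target, was highest, with 2, 4, and 1 counts under DMSO and 56, 11, and 25 under mocetinostat (log2 fold change 4.84, adjusted p = 3.28e-12). *PRKAR1A*, which encodes a regulatory subunit of protein kinase A, was lowest at -0.73 (adjusted p = 4.71e-10). It was 1 of 4 genes of this list that passed lower. With *GAPDH* scaling, under which the median of all genes was 0.53, its value was -0.19 and none of the list passed lower.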

How the data were processed

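RNA-Seq was performed on 3 DMSO- and 3 mocetinostat-treated samples. The authors deposited whole raw counts of reads per gene. Per the study's methods, ribosomal reads were removed, and single reads were aligned to GRCh38 with STAR 2.6.1d and assigned to Ensembl genes with featureCounts 1.6.4 (versions from the submitters' processing notes). Strand use and the treatment of multimapping reads are not given in the sources used here. Reads carry no molecular identifiers, so floors cover counting error only. SEs and 95% intervals were computed from the log2 fold change and F statistic of each gene's fit. They can understate the spread between samples. For *PTGS2*, the log2 fold change without DMSO replicate 1 was 5.81, above the interval's upper end of 5.79.

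Counts were fitted with edgeR 4.0.16 (limma 3.58.1, R 4.3.3), using TMM factors, filterByExpr at a minimum count of 10, treatment as the only term, and Benjamini-Hochberg adjustment over 13966 genes. Calls needed an adjusted p under 0.05 together with a log2 fold change above 1 (up) or below -1 (down). The fit was tested on simulated counts for this comparison, where 192 of 195 changed genes among 13973 were called, and 1 unchanged gene. The simulation drew as many rises as falls and gave all genes the same dispersion. It therefore does not test the scaling or the spread between samples of the real data. Within-sample ratios used a pseudocount of 0.5. Floors used 3 counts. Python 3.11.15, pandas 2.3.3, scipy 1.17.1, and matplotlib 3.10.9 were used for tables and figures. Positions, exon lengths, and transcript lengths came from GENCODE release 44, which held 99.5% of the identifiers, and upstream sequences from RefSeq on GRCh38.p14.

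Members and lists were chosen with earlier results of these data known. Named were the 10 members, the highest and lowest gene of each list, genes of a list's calls when 5 or fewer in a direction, tested neighbors within 500 kb of *PTGS2*, and the 5 genes nearest to it in profile with at least 10 CPM in a condition. Markers named singly, *PACERR*, *PTGER3*, *PLA2G2A*, *PLA2G5*, *TBXAS1*, *LTC4S*, *TNF*, *CEBPB*, and *HIF1A* were chosen after their values were seen. Replicate pairs differed by a chi-square per degree of freedom of 1.93 to 7.95, beyond sampling noise. Samples were called independent experiments by the study; if they were not, p-values measure technical spread.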

Additional observations from a re-analysis of the deposited data

How the results depend on the processing

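Over 15 alternative settings, 140 of 146 log2 fold changes of the members kept their direction and their side of the threshold. All 8 upregulated members passed the test under each setting in which they were tested. With a minimum of 10 counts in every sample, *PTGS1*, *PTGES*, *PTGIS*, and *HPGD* were not tested, leaving 4 members upregulated, and 4 passing higher, by construction, with 1620 genes up and 704 down in all against 2827 and 1142. *GAPDH* scaling moved the median of all genes to 0.53, gave 4425 up and 284 down (94.0% of calls up, against 71.2%), turned *PTGES3* to 0.26, and left 0 members passing lower. Thinning also left 0, with adjusted p = 0.42 for *PTGES2* and 0.0848 for *PTGES3*. Without a filter 3201 were up and 2120 down (60.2% up), with a median of 0.25 over the 40504 genes then tested and -0.25 over the 13966 kept by the filter; the cause was not tested. Testing against a log2 fold change of 1 (glmTreat) gave 2069 up and 465 down (81.6% up), and *PTGES2* and *PTGES3* did not pass it (adjusted p = 1 for both). Over all alternatives the lowest edgeR or DESeq2 adjusted p was 1.66e-06 for *PTGES2* and 3.01e-09 for *PTGES3*. DESeq2 1.42.0 gave 3419 up and 1178 down. Leaving out each sample in turn gave 2842 to 3216 up and 1173 to 1267 down, always with 8 members up, 0 down, and 8 higher and 2 lower. Same-numbered samples deviated together with r = 0.0078, 0.0116, and -0.0162 across genes, so no pairing by number was seen. Counting noise lowers such values, and they cannot exclude that same-numbered samples shared an experiment. With the replicate number as a block, 2798 were up and 1133 down, and 8 members were upregulated. The 5 ratios then gave exact sign-flip p-values of 0.25 to 0.5. The canonical transcript length, tried after seeing the data, changed the order per kb only as stated for *PTGES2* and by exchanging *PTGIS* and *HPGD*. Low depth limits *PTGS1*, *PTGES*, *PTGIS*, and *HPGD* most, with 3 to 20 counts per control sample.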
